A study of Mus musculus with 17 samples.

Results

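The genes described here encode the MHC class II molecules and the proteins that load and switch them on, read in mouse CD4 T cells sorted from culture. The 7 members are H2-Aa, H2-Ab1, H2-Eb1, Cd74, H2-DMa, H2-DMb1 and Ciita, out of 18194 genes with a probe set that names 1 gene on the Affymetrix M430v2 array. They were chosen by name, with earlier results of these data known. The platform's gene table pairs them with 16 probe sets. H2-DMb1 has no probe set of its own and shares 2 with its neighbour H2-DMb2, so that the 6 other members carry the results.

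MHC class II molecules are pairs of an alpha and a beta chain that display peptides to CD4 T cells. Dendritic cells, macrophages and B cells can make them, under the control of the transactivator Ciita. Resting mouse T cells are generally held not to make them, and class II found on activated mouse T cells is commonly discussed as protein taken up from antigen-presenting cells. An array of sorted cells does not show which cells a class II signal came from.

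The 17 arrays come from a pair of experiments with mice aged 6 to 10 weeks, and each array holds cells of 3 pooled male mice. In the co-culture experiment, CD4+ Foxp3- T cells from spleens of C57BL/6-Foxp3/GFP reporter mice, in which GFP marks cells that express the regulatory T cell factor Foxp3, spent 5 days in culture with dendritic cells (DC), 10 T cells to each DC. All of these cultures held anti-CD3 (1 ug/ml), TGFbeta (0.6 ng/ml) and IL-2 (5 ng/ml). The DC came from the lamina propria (LP), or from spleen with 100 nM retinoic acid (SpRA), or from spleen alone (Sp), and the T cells were sorted into Foxp3+ and Foxp3- by GFP. That gives LP Foxp3+, LP Foxp3-, SpRA Foxp3+, Sp Foxp3+ and Sp Foxp3- with 2 arrays each and SpRA Foxp3- with 1 array.

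In the memory experiment, memory CD4 cells (CD44hi, CD62L-, CD25-) of spleen and lymph nodes of C57BL/6 mice were cultured with naive CD4 cells at a ratio of 2 to 1. Beads with anti-CD3 and anti-CD28, IL-2 (20 U/ml) and TGFbeta (10 ng/ml) were present for 48 hours, with 100 nM retinoic acid (MemoryRA) or without it (Memory), and memory cells were sorted out again by a CD45.1 or CD45.2 congenic marker. Each memory group has 3 arrays. The labels name no DC in that culture, and memory cells were cultured with naive cells in both groups.

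Values are log2 intensities, and array medians lay between 5.88 and 5.98. T cell identity was plain on every array: all 10 measured T cell genes, Cd3e and Cd4 among them, lay above the array's 75th percentile (7.33 to 7.66) on all 17 arrays. The Foxp3 probe set read only 3.88 to 4.53 on the co-culture arrays of both sorts, so it does not check the Foxp3 label there. Gpr83, a gene linked to regulatory T cells, read 7.87 to 10.16 in Foxp3+ groups and 6.30 to 7.50 in Foxp3- groups. The memory arrays numbered 3 stood apart from numbers 1 and 2 in both groups in several lists below, and most memory differences named below are also given without both of them.

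Of the class II promoters in the RefSeq table (build GRCm38.p6, windows of 300 bases around a gene's start), 3 of the 4 members with a window held the letters GNAAC followed within 5 to 50 bases by TGATTGG on the gene's strand. Class II promoters are known for a shared S, X and Y box arrangement, read by the RFX, CREB and NFY complexes that recruit Ciita, and the second set of letters is the core of the Y box. The pair was chosen after the sequences were seen. It occurs on the gene's strand in 0.618% of all 32851 windows and on either strand in 1.28%. TGATTGG alone is in 7.82% of them on either strand and GNAAC alone in 84.8%. No window was given for H2-Ab1, Cd74 or Ciita. The stretches below are shown because they carry the pair, with both sets of letters in capitals. They lie on chromosome 17 just before each gene's start: chr17:34287861-34287912 on the minus strand for H2-Aa, chr17:34305768-34305818 on the plus strand for H2-Eb1, chr17:34153089-34153140 on the plus strand for H2-DMb1 and chr17:34238810-34238858 on the plus strand for H2-Ob, a gene of the pathway described below.
H2-Aa: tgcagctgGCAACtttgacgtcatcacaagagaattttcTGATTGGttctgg
H2-Eb1: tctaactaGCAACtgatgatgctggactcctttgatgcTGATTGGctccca
H2-DMb1: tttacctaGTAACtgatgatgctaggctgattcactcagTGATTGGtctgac
H2-Ob: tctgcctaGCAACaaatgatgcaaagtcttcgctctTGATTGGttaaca
The 2 windows of H2-DMa and the window of H2-DMb2 do not hold the pair, which says only that these letters are not in those windows. H2-Oa and H2-Eb2 windows hold it too. As the values below show, genes with and without the pair were among those that moved, and genes with it were among those that did not.

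Among the tested members the beta chain gene H2-Ab1 differed most between cultures. It was lower in T cells cultured with LP-DC than in those cultured with Sp-DC, whether sorted as Foxp3+ or as Foxp3-. Its probe set read 9.52 and 9.52 in LP Foxp3+ cells, 9.89 and 10.78 in SpRA Foxp3+ cells and 10.09 and 10.76 in Sp Foxp3+ cells. In Foxp3- cells it read 8.85 and 9.16 with LP-DC, 10.75 with Sp-DC plus RA, and 9.88 and 10.69 with Sp-DC. All 4 LP arrays lay below all 7 arrays of spleen DC cultures (highest 9.52 against lowest 9.88). H2-Ab1 is the 1 tested member of 5 for which these groups did not overlap, and 3.34% of all 11940 genes tested did not overlap between the same arrays (1.81% lower in LP). Against the 4 Sp arrays alone these shares were 10.1% and 5.74%.

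Paired by array number, LP minus Sp was -0.57 and -1.25 in Foxp3+ cells and -1.03 and -1.53 in Foxp3- cells. The fitted difference was -1.28 ± 0.21 (SE) in Foxp3- cells, a level 2.43-fold lower, with an adjusted p of 0.0434 in limma with the array number as a block, called paired below. In the planned fit, without the block and called unpaired, the SE was 0.37 and the adjusted p 0.524. In Foxp3+ cells it was -0.91 ± 0.21, with an adjusted p of 0.0586 paired and 0.587 unpaired. LP Foxp3+ over SpRA Foxp3+ gave -0.82 ± 0.21, with an adjusted p of 0.093 paired and 0.892 unpaired. So 1 of the 5 tested members passed in Foxp3- cells in the paired fit, where 0.586% of all genes did (0.469% lower). In Foxp3+ cells 0 members passed against Sp (1.44% of all genes) and 0 against SpRA (1.83%), although 2 members in each had an unadjusted p under 0.05. Both depended on the LP Foxp3+ array numbered 1: without it H2-Ab1 was -1.25 against Sp (adjusted p 0.0285 paired) and -1.16 against SpRA (0.0379). The unpaired fit called 0 members in all 3, and 0, 0 and 0.0921% of all genes in Foxp3-, in Foxp3+ against Sp and in Foxp3+ against SpRA.

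The mean of the Foxp3+ and Foxp3- contrasts, a comparison added after these values were seen, was -1.10 ± 0.15 for H2-Ab1, with an adjusted p of 0.00644 paired and 0.128 unpaired (limma). In that paired fit 11.5% of all genes passed (6.20% lower), and H2-Ab1 passed with each co-culture array left out in turn (adjusted p up to 0.0473). The call in Foxp3- cells alone was lost without any 1 of its 4 arrays: adjusted p was 0.055 without LP Foxp3- number 1, 0.275 without number 2, 0.0884 without Sp Foxp3- number 1 and 0.441 without number 2. In bulk samples like these, fewer cells of a type and less RNA per cell cannot be told apart.

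The other H2-Ab1 probe sets had the same order of cultures. The names of the brightest and the dimmest end in _s_at and _x_at, which marks probes that do match or may bind other transcripts. The second probe set read 6.23 and 6.04 in LP Foxp3+ cells and 7.03 and 7.52 in Sp Foxp3+ cells, and 5.77 and 5.83 in LP Foxp3- cells and 6.80 and 7.26 in Sp Foxp3- cells. With all probe sets fitted on their own, its LP over Sp difference was -1.13 ± 0.21 in Foxp3+ cells (adjusted p 0.0506) and -1.23 ± 0.21 in Foxp3- cells (adjusted p 0.0482), both in the paired fit. The dimmest probe set gave -0.81 ± 0.21 in Foxp3+ (adjusted p 0.0858) and -0.88 ± 0.21 in Foxp3- cells (adjusted p 0.0873). On all 3 probe sets the 4 LP arrays lay below the 4 Sp arrays.

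**Figure D1:**
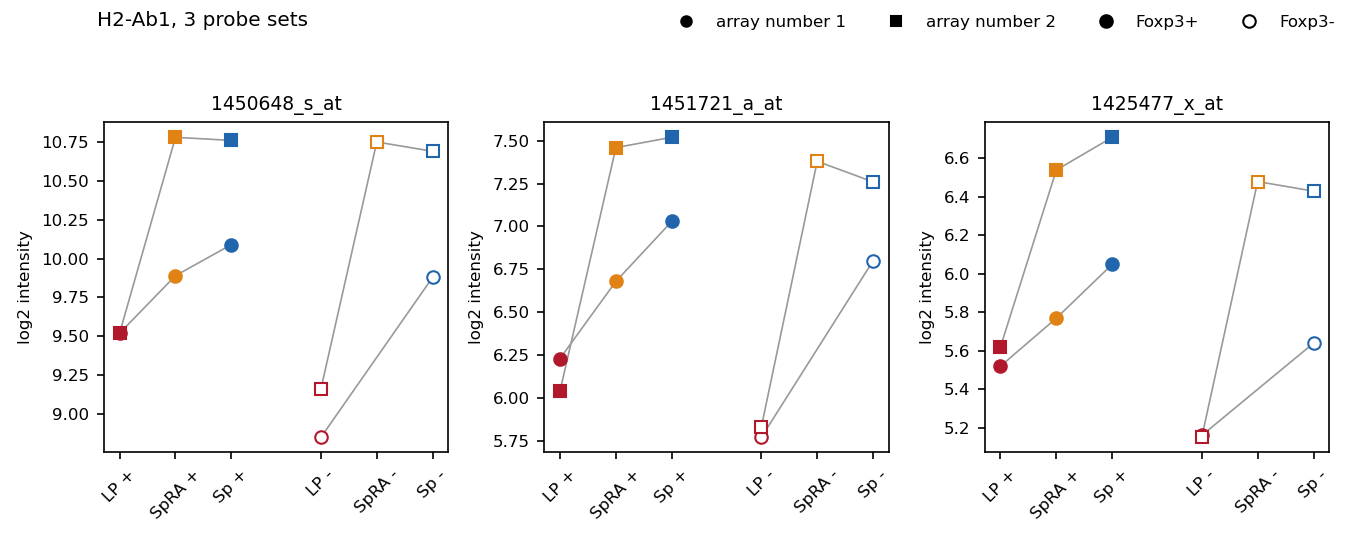
Log2 intensity of the 3 H2-Ab1 probe sets on the 11 co-culture arrays, with Foxp3+ cells (filled, left) and Foxp3- cells (open, right) of the LP, SpRA and Sp cultures and grey lines joining arrays of the same number. Each panel has its own vertical axis. On every probe set the LP arrays are lowest, and array number 2 is above number 1 in the spleen DC cultures.

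For retinoic acid in Foxp3+ cells no H2-Ab1 difference was called: SpRA minus Sp was -0.20 and 0.02 by array number, and the fitted -0.09 ± 0.21 had an adjusted p of 0.915 paired. Foxp3+ minus Foxp3- was 0.67 and 0.36 with LP-DC and 0.21 and 0.07 with Sp-DC, and 0.03 in the 1 SpRA pair. The fitted sort difference of 0.51 ± 0.21 with LP-DC had an adjusted p of 0.328 paired. By mean level the co-culture groups ran from SpRA Foxp3- (10.75, 1 array) through Sp Foxp3+ (10.43 ± 0.48, SD, n = 2), SpRA Foxp3+ (10.33 ± 0.63, n = 2) and Sp Foxp3- (10.29 ± 0.57, n = 2), which overlap, to LP Foxp3+ (9.52, both arrays equal to 2 decimals) and LP Foxp3- (9.01 ± 0.22, n = 2).

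The alpha chain gene H2-Aa, whose product pairs with that of H2-Ab1, was not called for LP over Sp. Its brightest probe set read 6.34 and 6.40 in LP Foxp3+, 6.36 and 6.43 in SpRA Foxp3+, and 6.31 and 6.23 in Sp Foxp3+ cells. It read 6.38 and 6.21 in LP Foxp3-, 6.89 in SpRA Foxp3-, and 6.37 and 6.35 in Sp Foxp3- cells. The single SpRA Foxp3- array was highest and the other 10 lay within 6.21 to 6.43. LP over Sp was 0.10 ± 0.12 in Foxp3+ cells and -0.06 ± 0.12 in Foxp3- cells, with paired adjusted p of 0.746 and 0.851. The Affymetrix names of the 4 H2-Aa probe sets end in _x_at or _s_at, which marks probes that may bind or do match other transcripts.

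H2-Eb1, the beta chain of the second class II molecule, read 6.36 and 6.48 in LP Foxp3+, 6.80 and 6.75 in SpRA Foxp3+ and 6.40 and 6.76 in Sp Foxp3+ cells. In Foxp3- cells it read 6.34 and 6.34 with LP-DC, 6.82 with Sp-DC plus RA, and 6.32 and 6.66 with Sp-DC. LP and Sp arrays overlapped, and LP over SpRA in Foxp3+ cells (-0.36 ± 0.14, both pairs lower) did not pass (adjusted p 0.294 paired). The alpha chain H2-Ea is annotated by RefSeq as a transcribed pseudogene in C57BL/6J, and its probe set nevertheless read 8.56 to 9.21 in the co-culture and 8.33 to 9.27 in memory cells.

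Cd74 encodes the invariant chain, which guides class II molecules to the loading compartment. It read 6.68 and 6.78 in LP Foxp3+, 6.43 and 6.72 in SpRA Foxp3+ and 6.04 and 6.42 in Sp Foxp3+ cells, and 6.43 and 6.51 in LP Foxp3-, 6.50 in SpRA Foxp3-, and 6.47 and 6.61 in Sp Foxp3- cells. The Sp Foxp3+ arrays lay below the 9 others, and the LP Foxp3+ arrays above all but 1 SpRA Foxp3+ array. The LP over Sp difference in Foxp3+ cells, 0.50 ± 0.13, runs opposite to that of H2-Ab1 and was not called, with an adjusted p of 0.0756 paired and 0.502 unpaired. Cd74 is measured by 1 probe set.

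H2-DMa encodes a chain of H2-DM, which exchanges the invariant chain's peptide for others. In the co-culture it read 8.17 and 8.97 in LP Foxp3+, 8.23 and 9.12 in SpRA Foxp3+ and 8.22 and 8.80 in Sp Foxp3+ cells, and 8.11 and 8.86 in LP Foxp3-, 9.15 in SpRA Foxp3-, and 8.32 and 8.60 in Sp Foxp3- cells. Array number 2 was 0.28 to 0.89 above number 1 in the 5 groups that hold both, and all groups with both numbers overlap. The LP over Sp difference was 0.06 ± 0.16 in Foxp3+ and 0.03 ± 0.16 in Foxp3- cells (adjusted p 0.893 and 0.952 paired).

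Ciita, which switches the others on in antigen-presenting cells, was the member with the least signal over its array. All 3 of its probe sets lay below the array median on all 17 arrays, so it was not tested. Its brightest probe set read 4.94 to 5.65 in the co-culture, 5.83, 5.35 and 4.90 in MemoryRA and 5.16, 5.18 and 4.82 in Memory cells, which overlap. The other Ciita probe sets stayed within 4.53 to 5.28 and within 3.71 to 4.20. The brighter of the shared probe sets of H2-DMb1 and H2-DMb2 read 6.88 and 7.06 in LP Foxp3+, 7.16 and 7.59 in SpRA Foxp3+ and 7.05 and 7.57 in Sp Foxp3+ cells, and its LP over Sp difference of -0.34 ± 0.16 did not pass (adjusted p 0.292 paired). It read 6.82 and 6.76 in LP Foxp3-, 7.67 in SpRA Foxp3- and 6.99 and 7.14 in Sp Foxp3- cells.

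**Figure D2:**
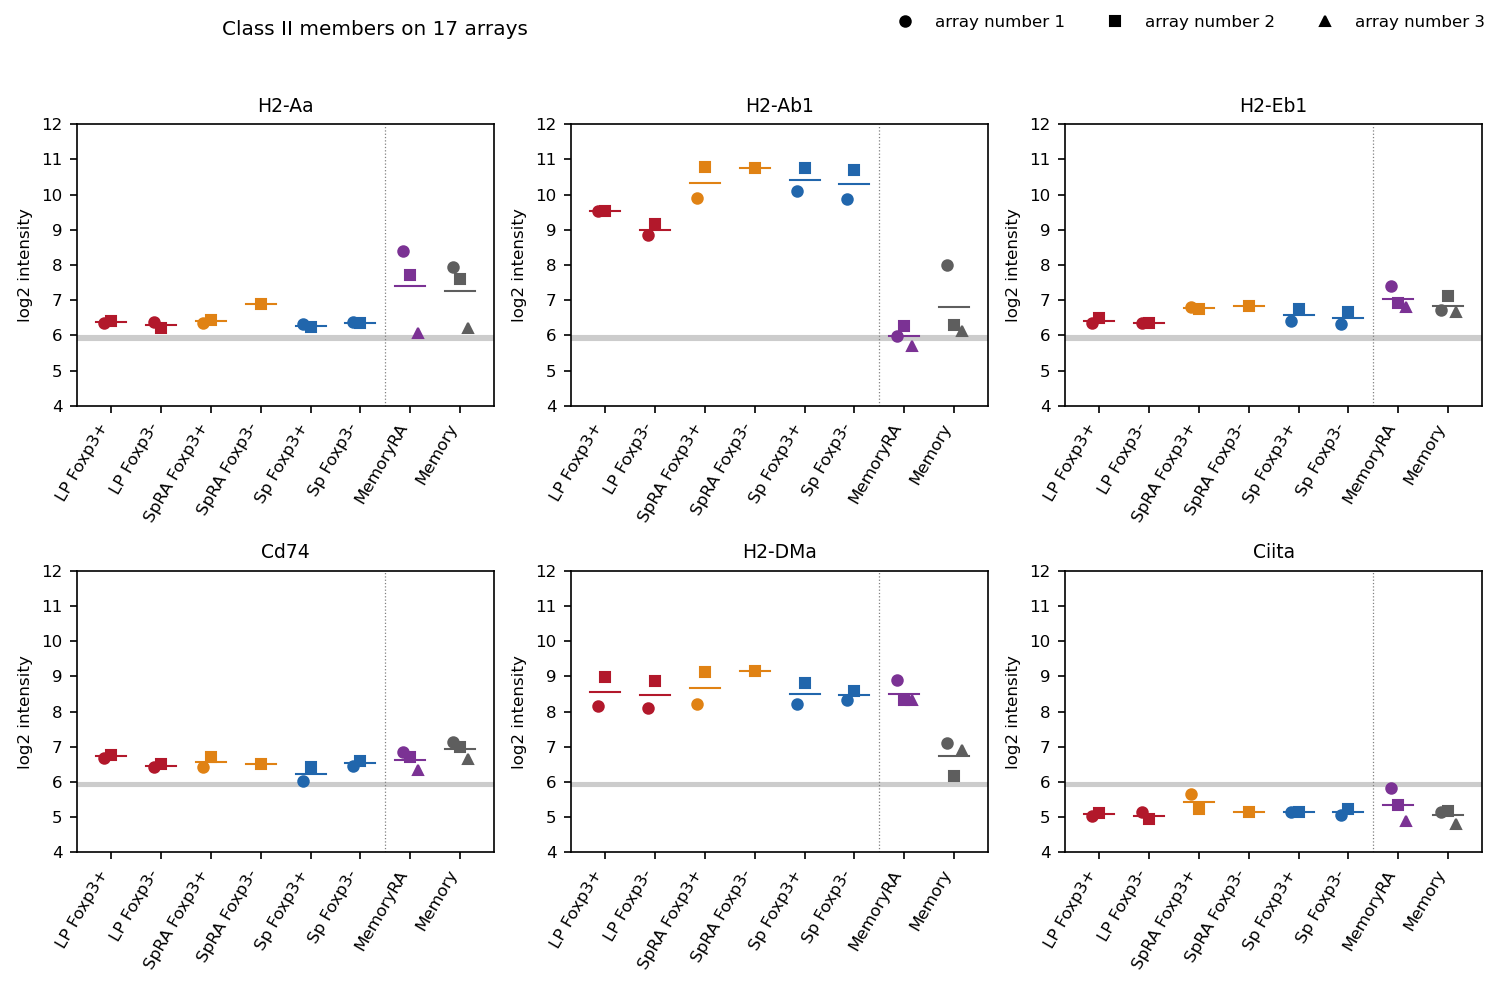
Log2 intensity of 6 class II members on all 17 arrays, 1 probe set per gene, with a bar at each group's mean, the grey band showing the range of array medians and the dotted line parting co-culture from memory groups. H2-Ab1 is lower in the LP groups than in the spleen DC groups, H2-DMa is higher in MemoryRA than in Memory, and Ciita stays under the band.

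In the memory experiment the largest difference of a tested member was that of H2-DMa, which was higher with retinoic acid. Its brighter probe set read 8.90, 8.32 and 8.32 in MemoryRA cells and 7.12, 6.18 and 6.90 in Memory cells. Every MemoryRA array lay above every Memory array, as for 4.19% of all genes tested (7.78% apart in either direction), and the differences by array number were 1.79, 2.14 and 1.42. The fitted difference was 1.78 ± 0.16 (3.44-fold), with an adjusted p of 0.000267 paired and 0.148 unpaired, where the SE was 0.31 (limma). Of the 5 tested members 1 passed in the paired fit, where 5.15% of 12163 genes passed (2.70% higher), and 0 in the unpaired fit, where 0.0987% passed and 1 member had an unadjusted p under 0.05.

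Without both arrays numbered 3 the H2-DMa difference was 1.96 and passed in either fit (adjusted p 0.0394 unpaired and 0.00582 paired). The second H2-DMa probe set read 7.95, 7.54 and 7.21 in MemoryRA and 7.13, 6.71 and 6.49 in Memory cells. These groups do not overlap either, and the difference was 0.79 ± 0.13 (adjusted p 0.0117, paired fit over all probe sets). The retinoic acid difference of H2-DMa in Foxp3+ co-culture cells was not called, at 0.01 and 0.32 by array number and 0.16 ± 0.16 in the paired fit (adjusted p 0.751). Whether the memory and the co-culture response differ was not tested, since the experiments share neither culture nor model.

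The partner of H2-DMa, the DM beta chain, comes from H2-DMb1 and H2-DMb2, which follow H2-DMa on chromosome 17. H2-DMb2, no member, rose with it: its brightest probe set read 8.53, 8.28 and 7.33 in MemoryRA cells and 5.32, 6.35 and 5.87 in Memory cells, a difference of 2.20 ± 0.27 (adjusted p 0.00172 paired, 0.159 unpaired). Without both number 3 arrays it was 2.57 and passed in either fit (adjusted p 0.00979 paired and 0.014 unpaired). A second H2-DMb2 probe set differed by 2.13 ± 0.18. Another read 6.51, 6.52 and 6.32 in MemoryRA and 6.52, 6.17 and 6.77 in Memory cells and did not pass (-0.04 ± 0.17). The probe set that matches both H2-DMb1 and H2-DMb2 read 7.44, 6.66 and 6.75 in MemoryRA and 6.88, 6.87 and 6.50 in Memory cells. These groups overlap and the difference was 0.20 ± 0.17 (adjusted p 0.684), so the files give no separate value for H2-DMb1, and H2-DMb2 is uncertain where its probe sets disagree.

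H2-Ob, a chain of H2-DO, which restrains H2-DM, read 6.18, 6.19 and 4.85 in MemoryRA and 5.03, 4.66 and 4.12 in Memory cells. The groups overlap because MemoryRA number 3 (4.85) lies below Memory number 1 (5.03), but all 3 pairs rose, by 1.15, 1.53 and 0.73. The probe set is dim here: all Memory values and that of MemoryRA number 3 lay below the array medians (5.88 to 5.98). The difference of 1.14 ± 0.16 passed paired (adjusted p 0.00369) and not unpaired (1.00), and without both number 3 arrays it was 1.34 and passed in both (adjusted p 0.0182 paired and 0.0178 unpaired). The other DO chain, H2-Oa, read 6.09, 6.28 and 5.99 in MemoryRA and 6.95, 6.46 and 6.30 in Memory cells. Its MemoryRA arrays lay below its Memory arrays, but the difference did not pass (-0.45 ± 0.16, adjusted p 0.176 paired; -0.52 and 0.404 without both number 3 arrays).

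**Figure D3:**
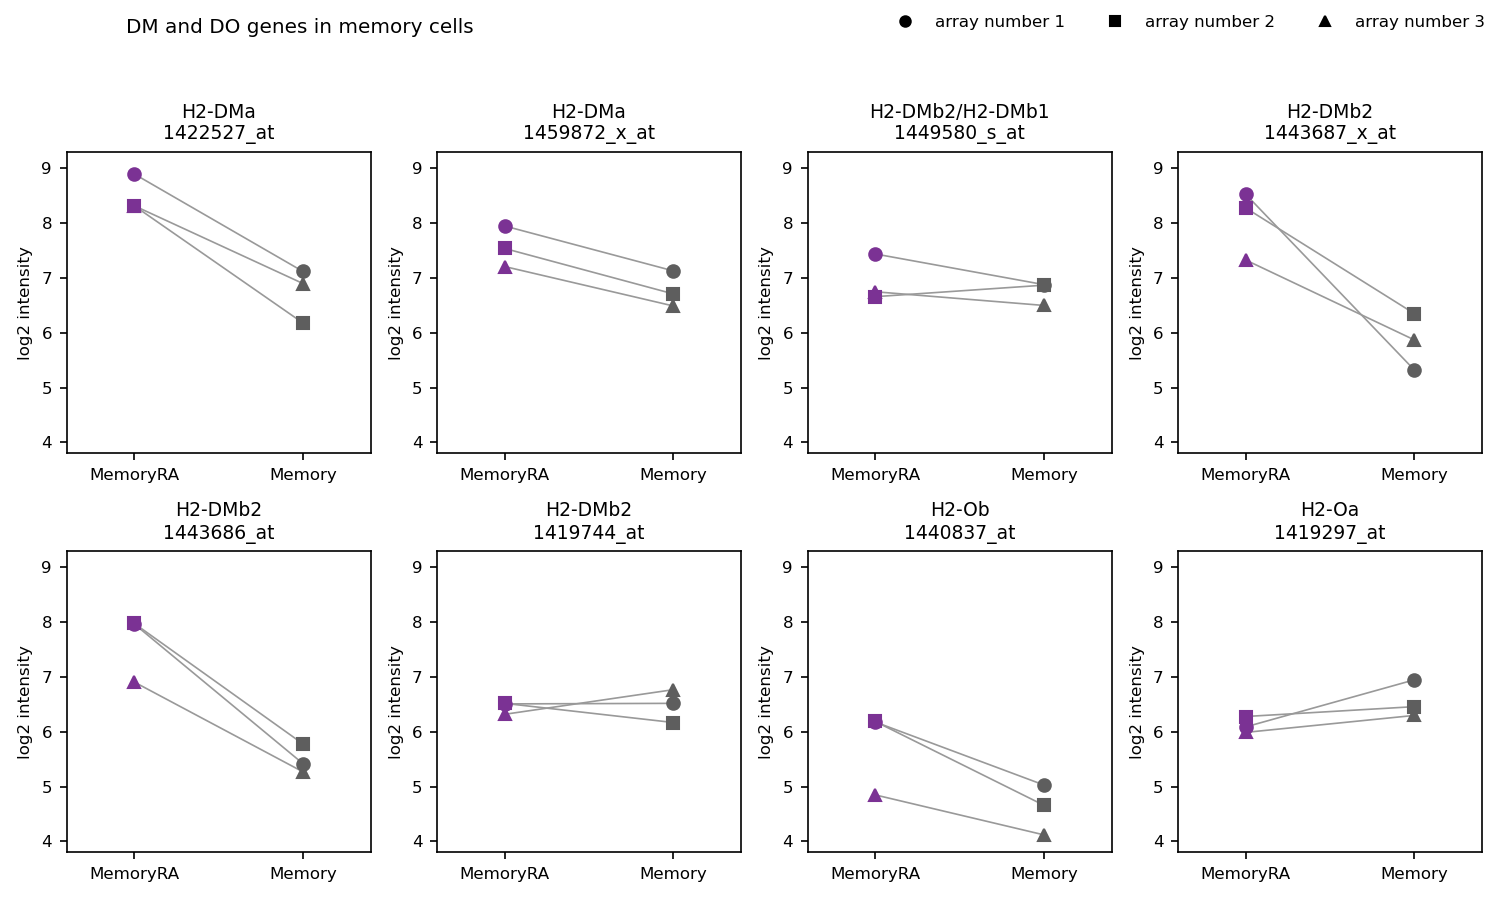
Log2 intensity of probe sets of the DM and DO genes in MemoryRA cells (left of each panel) and Memory cells (right), with grey lines joining arrays of the same number. Both H2-DMa probe sets, 2 of the 3 H2-DMb2 probe sets and H2-Ob are higher in MemoryRA in all 3 pairs, while the shared H2-DMb2/H2-DMb1 probe set and H2-Oa are not.

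The class II chains and Cd74 were not called in memory cells. H2-Ab1 read 5.98, 6.28 and 5.70 in MemoryRA and 8.01, 6.29 and 6.11 in Memory cells. The Memory array numbered 1 was alone high, and the pairs differed by -2.03, -0.02 and -0.41. The fitted -0.82 ± 0.31 did not pass (adjusted p 0.230 paired). Without number 2 it was -1.22 and passed (adjusted p 0.0118 paired), without number 3 it was -1.02 (0.393), and without number 1 it was -0.21 (0.714). The other H2-Ab1 probe sets ranged within 4.82 to 5.44 and within 5.10 to 5.62 on the 6 memory arrays, where the brightest probe set spanned 5.70 to 8.01.

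H2-Aa read 8.41, 7.72 and 6.08 in MemoryRA and 7.95, 7.59 and 6.20 in Memory cells. It followed the array number: number 3 minus number 1 was -2.33 in MemoryRA and -1.75 in Memory cells. A second H2-Aa probe set read 7.93, 6.67 and 5.02 in MemoryRA and 7.31, 6.66 and 5.39 in Memory cells, with the same order of arrays. The retinoic acid difference of H2-Aa was 0.15 ± 0.15 (adjusted p 0.703 paired), and 0.29 without both number 3 arrays.

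H2-Eb1 read 7.39, 6.91 and 6.80 in MemoryRA and 6.73, 7.12 and 6.67 in Memory cells, which overlap (0.19 ± 0.17, adjusted p 0.681 paired, and 0.808 without both number 3 arrays). Cd74 read 6.84, 6.71 and 6.33 in MemoryRA and 7.14, 7.01 and 6.65 in Memory cells. The groups overlap, yet all 3 pairs were lower with retinoic acid, by -0.31, -0.30 and -0.31. The fitted -0.31 ± 0.12 was not called (adjusted p 0.258 paired, and 0.579 without both number 3 arrays).

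Sums of markers of other cells moved with the number, too. The number 3 arrays also had another spread of values. Their 75th percentile was 7.66 in MemoryRA and 7.62 in Memory, against 7.33 to 7.40 on numbers 1 and 2. Their medians were 5.88, against 5.94 to 5.98. Many of the summed markers lay near or below the array median, and the part of that spread in the sums was not tested. The summed log2 of 19 DC markers was 120.5, 120.5 and 112.7 in MemoryRA and 120.4, 118.2 and 111.9 in Memory cells, lowest on number 3 in both. The sum of 11 B cell markers was 70.8, 70.2 and 65.9 in MemoryRA and 69.1, 68.5 and 63.1 in Memory cells. Of single B cell genes, Cd79a, part of the B cell receptor, read 5.72, 5.58 and 5.00 in MemoryRA and 5.22, 5.99 and 4.67 in Memory cells. The sum of 16 monocyte and macrophage markers was likewise lowest on number 3, at 89.3, 89.6 and 83.4 in MemoryRA and 89.6, 88.7 and 82.0 in Memory cells, and their part in the H2-Aa values was not tested. The sum of the T cell genes ran the other way, highest on number 3 at 98.1 in MemoryRA and 98.3 in Memory cells. Single T cell genes did not all do so. Cd3d, Cd3g, Cd5, Cd2, Cd28 and Zap70 were highest on number 3 in both groups, while Cd3e, Cd4 and Lat were lowest there. Cd3e read 11.90, 11.94 and 10.33 in MemoryRA and 11.35, 11.17 and 9.94 in Memory cells.

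In the paired fit for retinoic acid in memory cells, 1 of 13 tested DC markers (H2-Oa among them, which the sums leave out) rose and 1 fell (Cd86 by 0.74 ± 0.14, Batf3 by -0.81 ± 0.13), and 2 of 5 B cell markers rose (Bank1 by 1.12 ± 0.19, Ighm by 1.04 ± 0.13), beside 5.15% of all genes, while the unpaired fit called 0 of 13 and 0 of 5. Without both number 3 arrays Ighm passed in either fit (1.10, adjusted p 0.0287 paired and 0.0261 unpaired). Bank1 (0.87, 0.116 paired), Cd86 (0.72, 0.169 paired) and Batf3 (-0.87, 0.0642 paired) passed in neither. Markers of CD8 T and NK cells moved as well: of 4 tested genes 2 rose, Nkg7, a granule protein of cytotoxic cells (1.76 ± 0.16, adjusted p 0.00034 paired), and Klrd1, a chain of an NK cell receptor (0.87 ± 0.14, adjusted p 0.00707 paired), and 0 passed unpaired. Nkg7 read 9.82, 10.06 and 8.97 in MemoryRA and 8.50, 8.0 and 7.06 in Memory cells, so these groups do not overlap. Without both number 3 arrays Nkg7 passed in either fit (1.69, adjusted p 0.0164 paired and 0.014 unpaired). Klrd1 passed in neither (0.75, adjusted p 0.125 paired and 0.291 unpaired). The sum of the 6 CD8 T and NK markers was 41.0, 40.6 and 38.9 in MemoryRA and 40.2, 38.2 and 36.2 in Memory cells. The part of these DC, B, CD8 T and NK cell markers in the rise of H2-DMa was not tested. The genes Itgax, Flt3, Lyz2 and Csf1r, which define DC and macrophages, stayed within 5.23 to 5.93, 6.09 to 7.0, 5.07 to 5.80 and 6.56 to 7.36 on the memory arrays. Of the 19 DC, 16 monocyte and macrophage and 11 B cell markers, 0, 0 and 1 (Ighm) lay above the array's 75th percentile on all 6 memory arrays.

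On the co-culture arrays, which follow a culture with DC, 1 of 19 DC markers lay above the 75th percentile on all 11 arrays and 17 on none. That gene was Cst3, a protease inhibitor that DC and many other cells make, and it fell with H2-Ab1 in the LP cultures: it read 8.32 and 8.25 in LP Foxp3+ and 7.88 and 8.14 in LP Foxp3- cells, against 8.50 and 8.78 in Sp Foxp3+ and 8.61 and 8.79 in Sp Foxp3- cells. All 4 LP arrays lay below the 4 Sp arrays, as for 5.74% of all genes tested (10.1% apart in either direction). The mean LP over Sp difference was -0.52 ± 0.11 (adjusted p 0.0177 paired). Cst3 was the 1 of 12 tested DC markers that passed in that paired fit, where 11.5% of all genes passed (6.20% lower). The unpaired fit called 0 of the 12.

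The sum of the 19 DC markers was 112.7 to 114.2 in LP Foxp3+, 111.2 to 111.7 in LP Foxp3-, 113.2 to 113.6 in SpRA Foxp3+, 113.4 in SpRA Foxp3-, 113.7 to 114.2 in Sp Foxp3+ and 112.7 to 113.2 in Sp Foxp3- cells. Itgax read 5.53, 5.58, 5.24 and 5.69 on the LP arrays and 5.51, 5.58, 5.48 and 5.48 on the Sp arrays, which overlap. Flt3, the receptor of a DC growth factor, read 6.49, 6.29, 6.63 and 6.27 on the LP arrays and 6.72, 6.41, 6.34 and 6.43 on the Sp arrays, which overlap as well.

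The sum of the 16 monocyte and macrophage markers was 85.1 to 86.0 on the LP arrays and 85.1 to 86.1 on the Sp arrays, and 87.5 to 88.0 with SpRA. Of the 4 tested, Adgre1, the macrophage marker F4/80, fell in LP over SpRA Foxp3+ cells, the direction of the uncalled H2-Ab1 difference there (-1.51 ± 0.30, adjusted p 0.04 paired). Adgre1 read 7.09 and 6.96 in LP Foxp3+ and 8.10 and 8.97 in SpRA Foxp3+ cells. These do not overlap, but each group has only 2 arrays, and the share of all genes apart there was not counted. The unpaired fit called 0 of the 4 there, and the paired fit passed 1.83% of all genes. Of the 16 markers 0 lay above the 75th percentile on all 11 co-culture arrays and 15 on none, and of 11 B cell markers 2 did (Cd22 and Ighm) and 9 on none. Ighm, the immunoglobulin heavy chain mu, rose in LP cultures where H2-Ab1 fell (0.47 ± 0.10 in the mean of both sorts, adjusted p 0.0197 paired), and so did Bank1 (1.01 ± 0.14, adjusted p 0.00666). They were the 2 of 6 tested B cell markers that passed in that paired mean, where 11.5% of all genes passed, and 0 of the 6 passed unpaired. Of the 4 tested CD8 T and NK markers 2 fell with H2-Ab1 in that mean, Nkg7 (-1.32 ± 0.16, adjusted p 0.00607 paired) and Eomes, a transcription factor of cytotoxic cells (-0.75 ± 0.19, adjusted p 0.0326 paired). Nkg7 also fell in LP over Sp Foxp3+ cells alone (-1.70 ± 0.23, adjusted p 0.0216 paired), 0 of the 4 passed in Foxp3- cells, and Eomes rose in LP over SpRA Foxp3+ cells (1.81 ± 0.26, adjusted p 0.0101 paired). The unpaired fit called 0 of the 4 in each of these. The paired fit passed 1.44% of all genes in LP over Sp Foxp3+ cells and 1.83% in LP over SpRA Foxp3+ cells. Nkg7 read 10.43, 9.62, 11.28 and 10.45 on the LP arrays and 11.66, 11.78, 12.13 and 11.48 on the Sp arrays. All LP arrays were lower, as for 5.74% of all genes tested. The part of DC, macrophage, B, CD8 T or NK cell RNA in the H2-Ab1 difference was not tested.

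**Figure D4:**
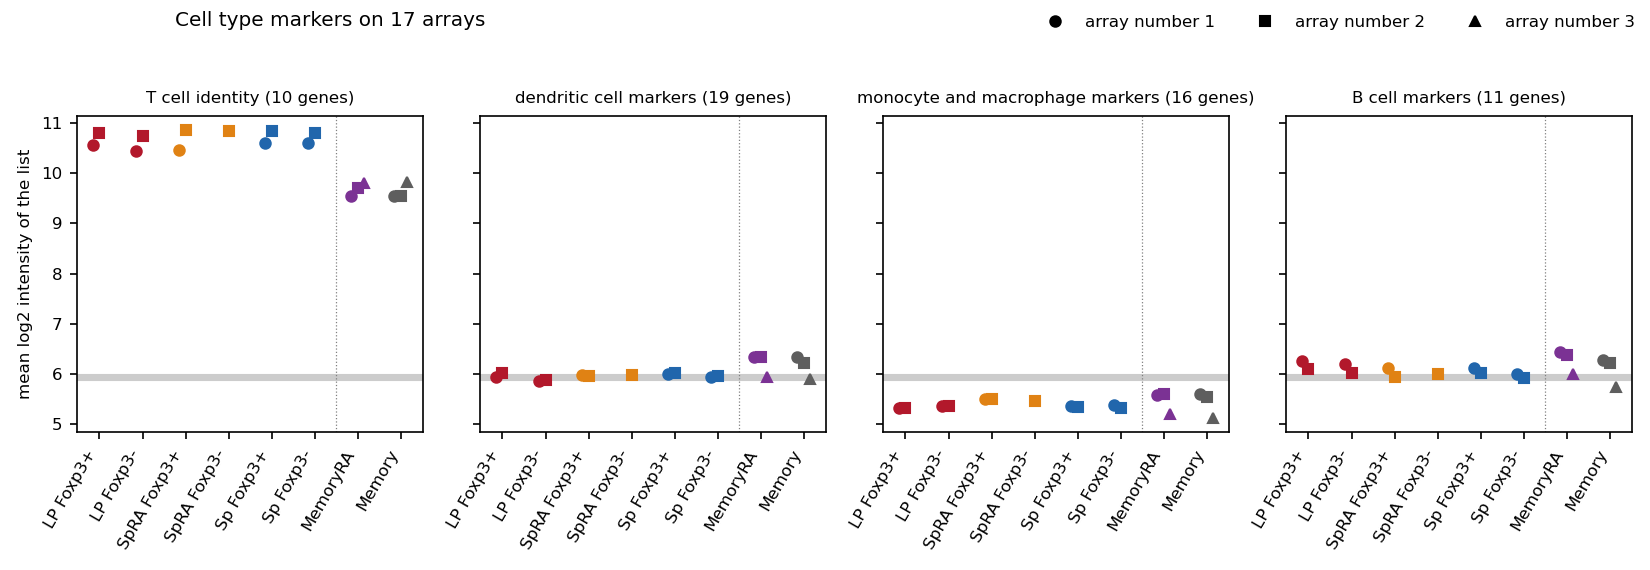
Mean log2 intensity per array of 4 lists of cell type markers, by group, with the grey band showing the range of array medians. T cell genes lie far above the band on all arrays, the other 3 lists lie near or below it, and the memory arrays numbered 3 are the lowest of the memory arrays in those 3 lists.

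The median difference of the 5 tested members was -0.07 for LP over Sp in Foxp3- cells, 0.06 in Foxp3+ cells and 0.15 for retinoic acid in memory cells, beside medians of all genes within 0.01 of 0 in each. The sort gave no call of a member in these fits: over the mean of the 3 cultures the members ranged from -0.17 (H2-Aa) to 0.17 (H2-Ab1) in the paired fit, where 4.75% of all genes passed (0.896% unpaired). The count was 0 of 5 in either limma fit, also at an unadjusted p under 0.05. The SpRA Foxp3- group is 1 array, assumed to vary like the other groups, in that mean and in the SpRA contrast. In the LP, Sp and SpRA cultures taken singly the count was 0 of 5 as well, where 3.49%, 0.586% and 0.0251% of all genes passed paired and 0.159%, 0 and 0 unpaired. Paired, 1 member in each had an unadjusted p below 0.05.

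Retinoic acid in Foxp3+ cells called 0 of 5 members, while 1.03% of all genes passed paired and 0.101% unpaired. The largest difference there was that of Cd74, 0.35 ± 0.13, higher in both pairs (0.39 and 0.30), with an adjusted p of 0.298 paired. These comparisons share arrays with those of LP and Sp cells.

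**Figure D5:**
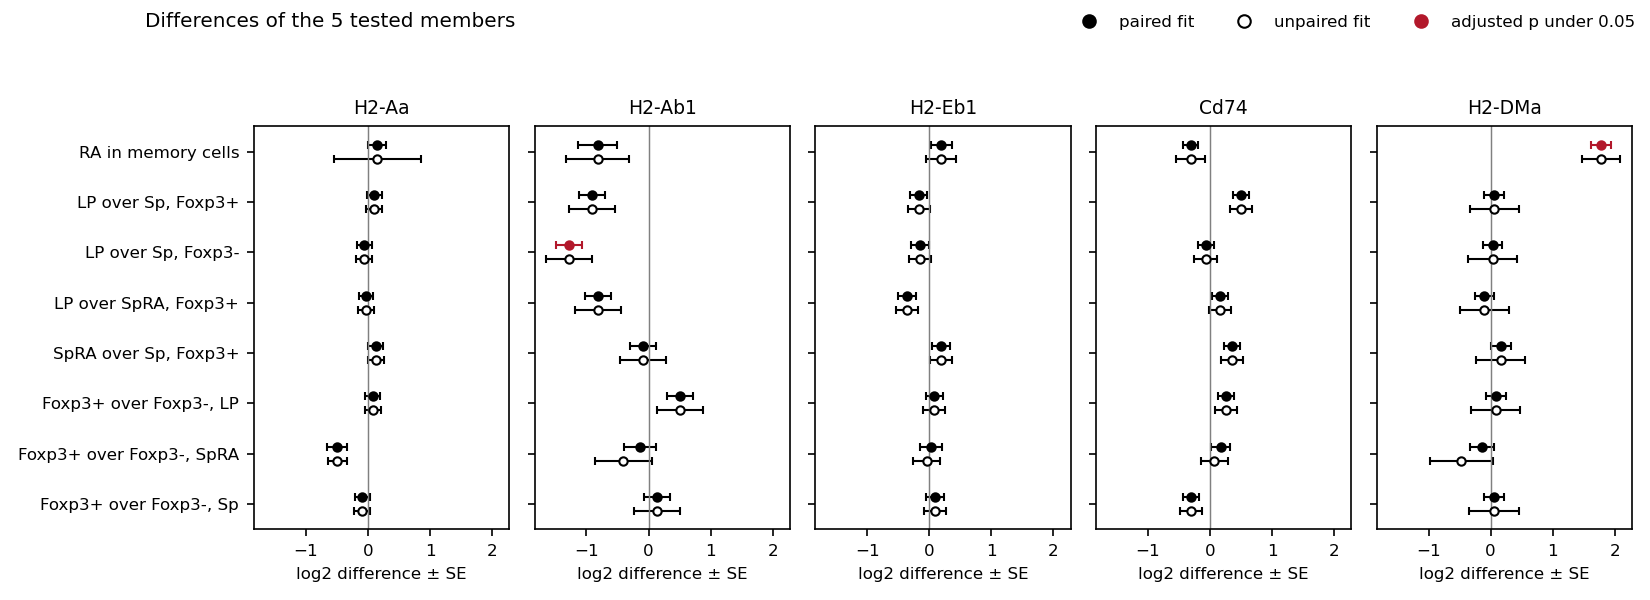
Log2 difference with its standard error for the 5 tested members in 8 comparisons, from the paired fit (filled) and the unpaired fit (open), red where the adjusted p is under 0.05. Only H2-Ab1 in LP over Sp Foxp3- cells and H2-DMa with retinoic acid in memory cells are red, both in the paired fit.

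Other genes of the class II pathway were read from a list of 25 names, 22 of them with a probe set. Retinoic acid in memory cells raised 3 of 20 tested in the paired fit (H2-DMb2, H2-Ob and Ctsb) and lowered 1 (Ctsl), with a median of 0.02 beside -0.00 for all genes. That is 4 of 20 beside 5.15% of all genes, and the unpaired fit called 0 of 20. Ctsb and Ctsl are lysosomal proteases. Ctsb read 10.76, 10.74 and 10.56 in MemoryRA and 10.23, 10.16 and 10.05 in Memory cells (0.54 ± 0.12, adjusted p 0.0398), and Ctsl 6.22, 6.69 and 7.56 in MemoryRA and 7.01, 7.79 and 7.85 in Memory cells (-0.73 ± 0.17, adjusted p 0.0367). Neither call stood without every pair: leaving out number 1, 2 or 3 gave Ctsb an adjusted p of 0.0598, 0.0605 and 0.242, and leaving out number 2 or 3 gave Ctsl 0.075 and 0.0591 (paired).

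In the co-culture Ctsl and H2-Ob were higher in Foxp3+ than in Foxp3- cells, the 2 of 18 tested genes of that list that passed over the mean of the cultures (paired, where 4.75% of all genes passed, median 0.03 beside -0.02 for all genes). The unpaired fit called 0 of the 18. Ctsl read 9.03 and 9.61 in LP Foxp3+ and 7.69 and 7.77 in LP Foxp3- cells, 7.84 and 8.59 in SpRA Foxp3+ and 8.13 in SpRA Foxp3- cells, and 8.81 and 9.16 in Sp Foxp3+ and 7.75 and 7.80 in Sp Foxp3- cells. The mean difference was 1.02 ± 0.11 (adjusted p 0.00113 paired, 0.0563 unpaired). It was 1.59 ± 0.18 with LP-DC and 1.21 ± 0.18 with Sp-DC, and both passed paired (adjusted p 0.00198 with LP-DC and 0.0357 with Sp-DC). The Sp-DC call was lost without any 1 of the 4 Sp arrays (adjusted p 0.0823 to 0.233).

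H2-Ob read 10.01 and 9.83 in LP Foxp3+ and 9.27 and 9.38 in LP Foxp3- cells, 9.95 and 10.10 in SpRA Foxp3+ and 9.52 in SpRA Foxp3- cells, and 9.92 and 9.34 in Sp Foxp3+ and 8.82 and 8.38 in Sp Foxp3- cells. Foxp3+ was above Foxp3- in all 5 pairs, and the mean difference was 0.68 ± 0.12 (adjusted p 0.010 paired, 0.0727 unpaired). LP over Sp moved 1 of the 18 genes in Foxp3+ cells, Nfyc, a subunit of the Y box factor NFY (0.73 ± 0.15, adjusted p 0.0484 paired), and 0 in Foxp3- cells. The paired fit passed 1.44% of all genes in Foxp3+ and 0.586% in Foxp3- cells, and the unpaired fit called 0 of the 18 in either. In the mean of both sorts 4 of the 18 rose and 2 fell in the paired fit, where 11.5% of all genes passed, with a median of 0.05 beside 0.01 for all genes, and 0 passed unpaired. H2-Ob (0.51 ± 0.13, adjusted p 0.038), Rfx5 (0.62 ± 0.15, 0.0328), Nfyc (0.56 ± 0.10, 0.0121) and Creb1 (0.40 ± 0.11, 0.041) rose, opposite in direction to H2-Ab1. Rfx5 and Creb1 encode factors that bind class II promoters with NFY. Rfxap, a partner of Rfx5, fell (-0.69 ± 0.17, adjusted p 0.0306 paired), as did Ifi30, a thiol reductase of antigen processing (-0.55 ± 0.14, 0.0344 paired). LP over SpRA in Foxp3+ cells moved 1 of the 18, Ctsl (1.11 ± 0.18, adjusted p 0.0189 paired), where 1.83% of all genes passed paired, and 0 of the 18 passed unpaired. The Nfyc call was lost without LP Foxp3+ number 2 or Sp Foxp3+ number 2 (adjusted p 0.486 each), and without LP Foxp3+ number 1 (0.0721), either Sp Foxp3- array (0.081) or either SpRA Foxp3+ array (0.0656). The Ctsl call was lost without LP Foxp3+ number 2 (0.236) or SpRA Foxp3+ number 1 (0.107).

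Genes known to act on Ciita were read from a list of 14 names, 13 of them with a probe set. In memory cells 1 of 12 tested rose with retinoic acid in the paired fit (Ifngr1, a chain of the interferon gamma receptor, by 1.60 ± 0.24) and 3 fell: Il10, a cytokine that lowers class II (-2.84 ± 0.13), Ifng, the cytokine that induces Ciita (-1.20 ± 0.18), and Prdm1, a repressor of Ciita in plasma cells (-1.08 ± 0.17). The paired fit passed 5.15% of all genes, and the unpaired fit called 1 of the 12. Without both number 3 arrays Il10 (-2.79, adjusted p 0.00119) and Ifng (-1.46, 0.0173) passed paired, and Ifngr1 (1.27, 0.0746) and Prdm1 (-1.02, 0.0968) did not. Unpaired, Il10 passed there (adjusted p 0.000658) and Ifng did not (0.122). Il10 read 7.44, 7.37 and 7.61 in MemoryRA and 10.09, 10.31 and 10.54 in Memory cells, and it was the 1 gene that passed in the unpaired fit as well (adjusted p 0.00731). In LP over Sp Foxp3+ cells 2 of 11 tested genes rose, Irf4 and Jak2 (1.10 ± 0.20 and 0.85 ± 0.16, both adjusted p 0.0441 paired), and 0 of 11 passed in Foxp3- cells, where H2-Ab1 did. The paired fit passed 1.44% of all genes in Foxp3+ and 0.586% in Foxp3- cells, and the unpaired fit called 0 of 11 in either. In the mean of both sorts 2 of 11 rose, Irf4 (0.70 ± 0.14, adjusted p 0.017 paired) and Jak2 (0.73 ± 0.11, adjusted p 0.00771 paired), and 2 fell, Irf8 (-0.73 ± 0.13, adjusted p 0.0104 paired) and Prdm1 (-0.78 ± 0.13, adjusted p 0.00771 paired), with 0 called unpaired. That paired fit passed 11.5% of all genes. Irf8, a transcription factor of myeloid and B cells, fell in LP over SpRA Foxp3+ cells as well (-0.94 ± 0.18, adjusted p 0.0366 paired). It was the 1 of 11 that passed there, where 1.83% of all genes passed paired, and 0 of 11 passed unpaired. The class I pathway, set beside them, had 1 of 15 tested genes called for retinoic acid in memory cells (H2-Q10, -0.63 ± 0.13, adjusted p 0.026 paired, and -0.69 and 0.156 without both number 3 arrays) and 0 for LP over Sp in either sort.

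The genes whose pattern was most like the mean of H2-Aa, H2-Ab1, H2-Eb1 and Cd74 over the 11 co-culture arrays were Tnfsf9 (Pearson's r 0.965), Chst11 and Creld1 (0.959 each), Zfp692, Gstt2 and Pim3 (0.955 each), Zc3hc1 (0.954), Aldh2 (0.950), and Alg11 and Hpse (0.949 each). The mean itself followed H2-Ab1 (r 0.936) and H2-Eb1 (0.874) more than H2-Aa (0.553) and Cd74 (0.260). Over the 6 memory arrays the list was other: Adat3 and R3hcc1l (0.997 each), 2610316D01Rik, Xk and Polrmt (0.996 each), Rdh16f2 (0.995), Oaz3, 1700028I16Rik and 3110021A11Rik (0.994 each), and Mroh3 (0.993). There the mean followed H2-Aa (0.920) and Cd74 (0.915). These are descriptions over arrays that share groups and array numbers.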

How the data were processed

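The authors deposited linear intensities of 17 arrays with 45101 probe sets, made with RMA per the submitters' processing notes. Whether all arrays were normalized together is not given in the sources used here. RNA was amplified in 2 rounds, per the labels' protocols. From these values log2 was taken with no pseudocount. Of the probe sets, 34958 name 1 gene, 932 several and 9211 none. The brightest probe set on average stood for each gene, and a gene was tested where that exceeded the median of 2 or more arrays in the experiment (11940 and 12163 genes). limma 3.58.1 (R 4.3.3) was fitted per experiment over all these genes, with Benjamini-Hochberg adjustment and a threshold of 0.05; its prior joined 5 residual degrees of freedom in the co-culture and 4 in the memory experiment (4 and 2 paired). It was tested on simulated data. The number of arrays limits the precision.

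The labels number the arrays. Residuals of same-numbered arrays correlated at 0.451 to 0.756 in the co-culture, where different-numbered arrays mirror these values (-0.756 to -0.451) by construction. In memory same-numbered arrays correlated at 0.656 to 0.94, but some different-numbered arrays correlated about as closely. Memory 1 and MemoryRA 2 gave 0.786, beside 0.782 for Memory 1 and MemoryRA 1. Memory 2 and MemoryRA 1 gave 0.644, beside 0.656 for Memory 2 and MemoryRA 2. So the numbers pair the co-culture arrays, but numbers 1 and 2 were not shown to be paired in memory. There the block rests on the labels. The unpaired fit was the planned one and the block an alternative to it. The paired fit is printed where it changes a call. What a number shares is not stated, and the p-values measure the spread between pooled samples.

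Most of the Foxp3+ arrays carry a source name that reads Foxp3-, while their title and sort read Foxp3+. Title and sort were followed. Members, lists and named genes (members, listed genes that passed in either fit up to 4 a list and comparison, defining markers, the 10 most similar genes) were chosen with earlier results of these data known, and not every listed gene that passed is printed. Alternatives were normalization, filter, pseudocount, probe set rule, block, 1 fit for all arrays and each array left out.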

Additional observations from a re-analysis of the deposited data

Results flagged for a closer look

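Cd74 was flagged by a rule that looks for sort differences of opposite sign in the LP and the Sp pairs. Foxp3+ minus Foxp3- was 0.25 and 0.27 in the LP pairs and -0.43 and -0.19 in the Sp pairs, the pattern that the rule asks for. How many of all genes have this pattern was not counted. The difference between the cultures was 0.57 ± 0.18 in the paired limma fit and 0.57 ± 0.25 in the unpaired fit, and neither passed over all genes (adjusted p 1.00 in each, unadjusted p 0.0116 and 0.0526). In the same term 0 of all genes passed in either fit, and 439 had an unadjusted p under 0.05 paired.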

How the results depend on the processing

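The number of members called was 0 in every comparison of the unpaired fit. With the replicate block it became 1 for retinoic acid in memory cells (H2-DMa), 1 for LP over Sp in Foxp3- cells and 1 in the mean of both sorts (H2-Ab1), and it changed no other count of members. With the block and another setting (quantile normalization, median-centred arrays, no filter, a filter at percentile 60, 32 added to each value, probe sets averaged, every probe set fitted) the count stayed 1 for memory cells and for the mean of both sorts. In Foxp3- cells it stayed 1 except with 32 added and with probe sets averaged, where it was 0 (adjusted p 0.0519 and 0.0628). In Foxp3+ cells it became 1 under quantile normalization. One fit over all arrays, without a block, gave 1 for memory cells, as did leaving out both number 3 arrays with or without the block. Leaving out 1 array with the block gave 1 to 2 members for memory cells, H2-Ab1 being the second without either array numbered 2, 0 to 1 for LP over Sp in Foxp3- and in Foxp3+ cells and for LP over SpRA, and 1 for the mean of both sorts. In a paired fit of the memory arrays, leaving out 1 array also takes its partner out of the difference.

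Among the alternatives run, the direction of a named gene turned only in differences that were not called in either fit. With 1 array left out, the unpaired H2-Ab1 difference of the sort ranged from -0.264 to 0.549 with Sp-DC (-0.194 without Sp Foxp3+ number 2) and from -0.068 to 0.229 over the cultures' mean (-0.055 and -0.032 in others). With the block it was -0.031 with Sp-DC without Sp Foxp3- number 1. For retinoic acid in memory cells H2-Aa ranged from -0.369 to 0.814 unpaired (-0.348 and -0.003 in others), and H2-Eb1 with the block from -0.039, without either array numbered 1, to 0.395. The cause was not tested. Groups of 1 to 3 arrays and dim probe sets limit what can be seen, above all for Ciita. Probe sets of H2-Aa, H2-Ab1 and H2-DMb1 that match or may bind several transcripts limit which gene is read.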

Other observations

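H2-Oa, read in the co-culture but not called, was 8.91 and 8.67 in LP Foxp3+ and 8.84 and 8.67 in LP Foxp3- cells, against 9.32 and 9.26 in Sp Foxp3+ and 9.17 and 8.88 in Sp Foxp3- cells, lower with LP-DC in all 4 pairs. The mean difference of both sorts was -0.38 ± 0.15 (adjusted p 0.133, paired limma fit). H2-DMb2 read 6.64 and 7.73 in SpRA Foxp3+ and 6.30 and 6.46 in Sp Foxp3+ cells on its brightest probe set, higher with retinoic acid in both pairs, and did not pass (0.81 ± 0.23, adjusted p 0.163 paired). Ifi30, a thiol reductase of antigen processing, read 7.94 and 8.20 in LP Foxp3+ and 8.20 and 8.49 in LP Foxp3- cells, against 8.53 and 8.59 in Sp Foxp3+ and 9.07 and 8.84 in Sp Foxp3- cells. All 4 LP arrays lay below the 4 Sp arrays, as for 5.74% of all genes tested. The mean of both sorts fell by 0.55 ± 0.14 (adjusted p 0.0344 paired, 0.202 unpaired). Of the 18 tested genes of the class II pathway list it was 1 of the 2 that fell there, while 4 rose and 11.5% of all genes passed.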
